A study of Mus musculus with 33 samples.

Results

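The polyamine pathway genes are the 10 genes that make, recycle, break down or regulate the polyamines: Odc1, Amd1, Srm, Sms, Sat1, Smox, Paox, Azin1, Oaz1 and Oaz2. They were taken by gene symbol from the 21671 genes of the deposited expression table. All 10 were found, and all 10 passed the filter on low values in both sets of libraries. The series asked how the oncogene MYC and stabilised β-catenin act in the mouse liver, in the short term and in tumours.

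RNA was sequenced from 20 livers taken 4 days after an injection of AAV8-TBG-CRE and, separately, from 6 liver tumours and 7 control livers, all in C57BL/6 mice. AAV8-TBG-CRE is a virus whose Cre recombinase is driven by a hepatocyte promoter, so every day 4 group, wild type included, carries the virus and Cre. The day 4 mice were 6 to 8 weeks old when injected. They were wild type (5 livers), carried the β-catenin exon 3 allele b-cat Ex3 (5 livers, here Ex3), carried the Cre-activated transgene R26-lslMYC (5 livers, here MYC), or carried both alleles (5 livers, here MYC+Ex3). The tumours, labelled liver noduli, came from Alb-CreERT2/R26-lslMYC mice (3 MYC tumours) and Alb-CreERT2/R26-lslMYC/b-catEx3 mice (3 MYC+Ex3 tumours). Alb-CreERT2 is a Cre under the albumin promoter that needs 4-hydroxytamoxifen (4-OHT), and the labels give no treatment, age or time for the tumours. Their controls were 7 wild-type livers taken 4 days after 4-OHT. These controls are whole livers without the Cre driver in their label, so tumour tissue, alleles and time differ from them together and cannot be told apart.

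Polyamines are small, positively charged molecules that bind nucleic acids and are needed for cell growth. Ornithine decarboxylase (Odc1) makes putrescine from ornithine, and S-adenosylmethionine decarboxylase (Amd1) makes the aminopropyl donor from which Srm, spermidine synthase, and Sms, spermine synthase, build spermidine and spermine. In the opposite direction Sat1 acetylates polyamines, Paox oxidises the acetylated forms, and Smox oxidises spermine directly. The antizymes Oaz1 and Oaz2 bind ornithine decarboxylase and send it to the proteasome, and Azin1, the antizyme inhibitor, binds the antizymes instead. Odc1 is a textbook target of MYC, which binds the E-box CACGTG and variants of it.

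The sequences before the start sites are shown because MYC is a variable of the study and binds such motifs, and these 3 synthesis genes, which all rose with MYC, differ in what they hold there. RefSeq start sites on GRCm38.p6 were available for 8 of the 10 members, in 10 windows of 250 bases that end at the base before the start. Srm and Azin1 had no window, and bases after the start were not searched for any member. The motifs searched were CACGTG, which reads the same on both strands, and CACGCG, which reads CGCGTG on the other strand. Matches that overlap were counted separately, and capitals mark each match. The Odc1 stretch covers the first 185 bases of its window and has both matches, CGCGTG ending 174 and CACGCG ending 95 bases before the start (chr12:17544623-17544807, plus strand). Amd1 has no match in its window (chr10:40302189-40302438, minus strand). Sms has 2 windows, and the one shown holds CACGTG ending 190 bases before the start (chrX:157492288-157492537, minus strand).
Odc1: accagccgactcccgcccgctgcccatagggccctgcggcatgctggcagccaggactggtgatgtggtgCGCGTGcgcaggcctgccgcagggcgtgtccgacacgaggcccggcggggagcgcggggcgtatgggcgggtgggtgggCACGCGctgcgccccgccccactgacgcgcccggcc
Amd1: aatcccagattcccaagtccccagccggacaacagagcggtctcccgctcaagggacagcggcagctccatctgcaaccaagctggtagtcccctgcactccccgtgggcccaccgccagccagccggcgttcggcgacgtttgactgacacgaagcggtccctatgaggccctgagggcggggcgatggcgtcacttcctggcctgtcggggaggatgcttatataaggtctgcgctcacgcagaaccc
Sms: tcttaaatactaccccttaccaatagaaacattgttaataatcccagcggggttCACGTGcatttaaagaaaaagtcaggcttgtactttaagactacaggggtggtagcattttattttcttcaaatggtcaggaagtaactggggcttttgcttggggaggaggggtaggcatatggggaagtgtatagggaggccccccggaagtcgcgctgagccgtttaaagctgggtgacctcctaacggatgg

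The other Sms window holds CACGCG ending 134 bases before its start, and Oaz1, which passed the test in no comparison, holds CACGCG ending 206 bases before its start. No match was found in the windows of Sat1, Smox, Paox and Oaz2. Of all 32851 RefSeq mouse windows of the same length, 6.02% hold CACGTG, 7.62% hold CACGCG and 12.9% hold either. These shares cover windows of any base content. G and C make up 80% of the Odc1 window, 47.2% of the Sms window shown and 75.2% of the other. Shares among windows of like base content were not counted. A match is a string of letters and not a measured binding site.

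Levels are given in RPKM, reads per kilobase of gene per M reads, and are set side by side only within a set. The day 4 libraries held 3.75 to 7.31 M reads in genes and the tumour and 4-OHT libraries 6.65 to 9.82 M, and the RPKM scales of the sets differ, so each set was compared only within itself. The highest RPKM of any gene was 220.3 to 396 in the day 4 libraries, of which the highest member reached 20.5% to 54.6%. In the tumours and their controls it was 42.9 to 67.5, of which the highest member reached 31.9% to 66.9%. In wild-type day 4 livers Alb averaged 269 RPKM, against 68.5 for Oaz1. What such a ceiling does to the members' order of levels and to their differences was not tested, so that order need not follow the amounts of RNA. Of the alleles' checks, Axin2, a β-catenin target, rose in Ex3 livers by 2.13 ± 0.351 (log2 change ± SE; limma, adjusted p = 0.0123) and in MYC+Ex3 tumours, and Ncl and Mki67 rose in every comparison that adds MYC. Myc itself averaged 2.57 ± 1.22 RPKM in wild-type and 4.00 ± 0.751 in MYC livers (SD, n = 5) and was not called (adjusted p = 0.208); whether transgene reads count toward that row is not given in the sources used here. Hepatocyte markers were present in every group. In 10 of the day 4 libraries the epidermal keratins Krt5, Krt14 and Krt17 summed to 3.95 to 23.8 RPKM, against at most 0.398 in the other 10. Only 1 of the 5 MYC livers was keratin-bearing, against 3 of 5 in each other day 4 group. By Xist and Ddx3y, 4 of the 7 control livers, all 3 MYC tumours and 2 of the 3 MYC+Ex3 tumours were male. At day 4 there were 2 males among the 5 wild-type, 3 among the Ex3, 3 among the MYC and 4 among the MYC+Ex3 livers. MYC replicate 5 had both Xist (86.1 RPKM) and Ddx3y (4.74 RPKM), so the changes called with MYC at day 4 are also given without it. The titles end in animal-like numbers, and 6 day 4 libraries, from all 4 groups, have numbers of 1 shared series. All 6 were keratin-free, against 4 of the other 14.

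In wild-type day 4 livers the order of mean levels was Sat1, Oaz1, Azin1, Odc1, Amd1, Paox, Oaz2, Srm, Sms and Smox, from 73.2 down to 3.07 RPKM. Neighbours in that order overlapped in range except Oaz2 against Srm and Srm against Sms. In MYC livers Odc1 came first, followed by Amd1 and Srm, and Srm had moved from the eighth place to the third. The 4 genes that build polyamines rose with MYC at day 4, the catabolic gene Paox fell, and no change passed the test for Sat1, Smox, Azin1 and the antizymes. No member passed the test for Ex3, alone or added to MYC. In both kinds of tumour Odc1, Amd1, Srm and Sms were again above the control livers. In whole tissue, fewer cells of a type and less RNA per cell cannot be told apart.

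**Figure D1:**
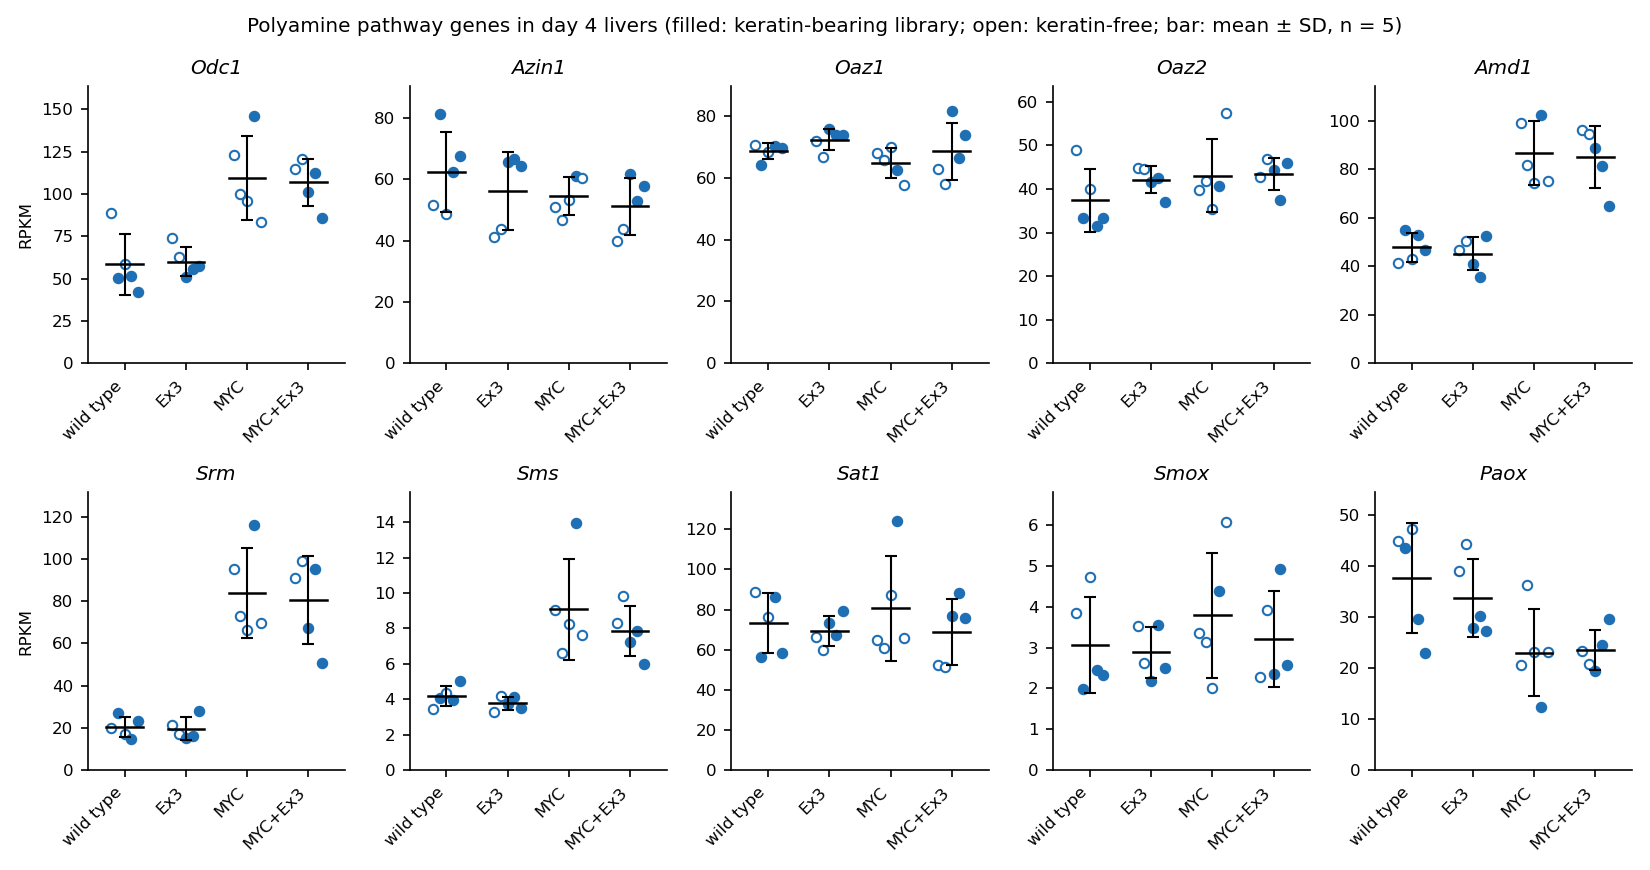
RPKM of each member in the day 4 livers by group, with 1 point per library, filled where epidermal keratins were present, and bars for the mean ± SD (n = 5). Amd1, Srm and Sms separate the groups with MYC from those without, while the 2 antizymes and Sat1 overlap across all 4 groups.

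Srm changed most. Its RPKM was 14.6, 17.0, 20.0, 23.0 and 26.9 in wild-type livers and 14.9, 16.2, 17.2, 21.5 and 28.2 in Ex3 livers. In MYC livers it was 66.2, 69.6, 72.8, 95.1 and 116, and in MYC+Ex3 livers 50.7, 67.3, 91.2, 95.4 and 99.3. Every library with MYC lay above every library without it. The log2 change from wild type was 1.99 ± 0.213 in MYC livers (3.98-fold; limma, adjusted p = 3.55e-06, SE throughout) and 1.93 ± 0.213 in MYC+Ex3 livers (adjusted p = 2.26e-06). The MYC change stood at the 98.6th percentile of all 13688 genes tested.

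Odc1, the first enzyme, rose less and less cleanly. It measured 42.2, 50.5, 51.7, 58.7 and 88.9 RPKM in wild-type livers and 50.8, 55.8, 57.4, 62.6 and 74.0 in Ex3 livers. With MYC it measured 83.4, 95.7, 99.9, 123 and 146, and with both alleles 85.8, 101, 112, 115 and 120.4. Wild-type replicate 1, at 88.9, reached into the range of both MYC groups, and the other 4 wild-type livers did not. The log2 change was 0.92 ± 0.173 with MYC (1.89-fold; limma, adjusted p = 0.000671) and 0.90 ± 0.173 with both alleles (adjusted p = 0.000683). Among keratin-free libraries alone, 2 wild-type against 4 MYC livers, the Odc1 change was 0.46 and the call was lost (limma, adjusted p = 0.157), while 2 keratin-free MYC+Ex3 livers differed by 0.69 (adjusted p = 0.0415). Over all day 4 livers Odc1 was 0.38 ± 0.101 higher in males (limma, adjusted p = 0.044; 3.09% of all genes differed by sex), and with sex as a term its MYC change was 0.84.

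Amd1, which supplies the aminopropyl donor, had 41.5, 43.2, 46.8, 53.1 and 55.0 RPKM in wild-type livers and 35.6, 41.1, 46.7, 50.5 and 52.6 in Ex3 livers. The MYC livers had 74.4, 75.3, 81.9, 99.0 and 102, and the MYC+Ex3 livers 64.8, 81.5, 88.7, 94.5 and 96.3. No library with MYC fell into the range of those without it. Amd1 rose by 0.84 ± 0.133 with MYC (limma, adjusted p = 0.000125) and by 0.81 ± 0.133 with both alleles (adjusted p = 0.000133). Amd2, a near-identical copy of Amd1, has no row in the deposited expression table, and reads shared with it make the Amd1 level uncertain.

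Sms, which adds the last aminopropyl group, was low throughout. It had 3.47, 3.96, 4.05, 4.34 and 5.0 RPKM in wild-type livers and 3.30, 3.50, 3.73, 4.10 and 4.16 in Ex3 livers. It had 6.59, 7.61, 8.23, 9.07 and 13.9 in MYC livers and 5.96, 7.26, 7.84, 8.29 and 9.83 in MYC+Ex3 livers. The ranges with and without MYC did not meet, and MYC replicate 4 was the highest library. The log2 change was 0.93 ± 0.16 with MYC (limma, adjusted p = 0.000266) and 0.77 ± 0.16 with both alleles (adjusted p = 0.00141), on a scale of log2(RPKM + 1) that understates changes of low genes.

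Among the recycling and breakdown genes, Paox was the one that moved at day 4. It had 23.0, 29.6, 43.6, 44.9 and 47.2 RPKM in wild-type livers and 27.2, 27.9, 30.1, 39.0 and 44.4 in Ex3 livers. It had 12.2, 20.6, 23.0, 23.1 and 36.2 in MYC livers and 19.3, 20.7, 23.4, 24.5 and 29.7 in MYC+Ex3 livers. The ranges overlapped, and 2 wild-type livers, at 23.0 and 29.6, lay within the MYC range. Paox fell by 0.71 on the log2 scale with MYC (SE 0.232; limma, adjusted p = 0.0325), and the difference with both alleles was -0.62 (adjusted p = 0.0572). The MYC call on Paox was lost without any 1 of 5 libraries, wild-type replicates 1 (-0.64), 2 (-0.65) or 3 (-0.62) or MYC replicates 1 (-0.69) or 4 (-0.52), with adjusted p from 0.0683 to 0.107. Paox was also 0.44 ± 0.147 lower in keratin-bearing than in keratin-free libraries (limma, adjusted p = 0.0341; 25.9% of all genes differed in this way), and among keratin-free libraries alone it was lower by more, at -0.85 with MYC (adjusted p = 0.0264) and -1.03 with both alleles (adjusted p = 0.0113).

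Sat1 and Smox, which acetylate polyamines and oxidise spermine, did not pass the test at day 4. Sat1 had 56.4, 58.5, 76.4, 86.3 and 88.5 RPKM in wild-type livers and 61.0, 64.9, 65.8, 87.1 and 124 in MYC livers. MYC replicate 4 stood highest, and the remaining MYC livers lay within the wild-type range. The Sat1 difference was 0.11, with a 95% interval from -0.29 to 0.51, and with both alleles -0.10, from -0.50 to 0.30. In the 2 keratin-free MYC+Ex3 livers, at 51.2 and 52.2 RPKM, Sat1 was lower than in keratin-free wild-type livers by 0.66 (limma, adjusted p = 0.0201), and over keratin-bearing libraries the sign was the opposite, at 0.28. Smox had 1.98 to 4.74 RPKM in wild-type and 2.01 to 6.08 in MYC livers, which rested on 20 to 92 reads per day 4 library. Its difference was 0.22, with an interval from -0.26 to 0.71.

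The regulators of ornithine decarboxylase stayed close to the control levels. Oaz1 had 64.2, 68.2, 69.6, 70.1 and 70.4 RPKM in wild-type livers and 57.8, 62.6, 65.8, 68.1 and 70.0 in MYC livers, a difference of -0.08 with an interval from -0.26 to 0.10. Oaz2 had 31.6, 33.3, 33.4, 40.0 and 48.9 in wild-type and 35.4, 39.8, 40.7, 41.9 and 57.4 in MYC livers, a difference of 0.20 with an interval from -0.07 to 0.46. The ranges of the groups overlapped for both antizymes. Azin1 had 48.8, 51.6, 62.6, 67.8 and 81.4 in wild-type and 46.9, 51.1, 53.4, 60.5 and 61.2 in MYC livers, a difference of -0.17 with an interval from -0.52 to 0.17. Within every day 4 group the keratin-bearing libraries had the higher Azin1, by 0.46 ± 0.068 over all 20 livers (limma, adjusted p = 0.000491). With that term in the fit, Azin1 was 0.28 lower in MYC+Ex3 than in wild-type livers (adjusted p = 0.0274), and its MYC difference was 0.01.

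Across the day 4 comparisons, limma called 4 members higher and 1 lower with MYC, where 16.9% of all genes tested were called higher and 5.36% lower. With both alleles it called 4 higher and 0 lower, against 17.9% and 6.18%. After each library was rescaled by its median ratio, the counts with both alleles were 4 and 1 (15% and 9.52% of all genes), the 1 lower being Paox at -0.70 (adjusted p = 0.0219). MYC added to Ex3 gave 4 higher and 0 lower against 16.4% and 4.7%, with log2 changes of 1.98 for Srm, 0.90 for Amd1, 0.88 for Sms and 0.82 for Odc1. These comparisons share libraries, so their calls do not support one another. Ranges did not overlap, with MYC higher, for 3 members in the MYC comparison (10.9% of all genes), 3 with both alleles (13.5%) and 4 when MYC was added to Ex3 (15.2%). The median log2 change of the 10 members with MYC was 0.21, against 0.07 over all genes tested. Without MYC replicate 5 the MYC changes were 2.05 for Srm, 1.01 for Odc1, 0.88 for Amd1, 0.98 for Sms and -0.73 for Paox. In the authors' deposited table, 5 members had an adjusted p under 0.05 for MYC against wild type, where 20.5% of its genes did, namely Srm (log2 1.81), Sms (0.95), Odc1 (0.78), Amd1 (0.72) and Paox (-0.74). The same table also calls 5 members with both alleles, where 27.8% of its genes are called, Paox among them (-0.72).

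Ex3 alone called 0 of the 10 members with limma, where 0.132% of all genes were called, and 0 members had an unadjusted p under 0.05. Their log2 differences ran from -0.15 for Azin1 to 0.18 for Oaz2. For Odc1 the 95% interval was -0.28 to 0.44 and for Srm -0.50 to 0.39. Ex3 added to MYC also called 0 members, against 0.19% of all genes, with 0 at an unadjusted p under 0.05. The intervals were -0.38 to 0.34 for Odc1, -0.30 to 0.25 for Amd1, -0.51 to 0.38 for Srm and -0.50 to 0.17 for Sms. The interaction, which tests whether the MYC change itself differs with Ex3, called 0 members and 0% of all genes, and its 95% intervals were widest for Paox, -0.46 to 0.91, and Smox, -0.82 to 0.55, and ran from -0.64 to 0.62 for Srm. The authors' deposited table calls 0 members for Ex3 against wild type (0.765% of its genes) and 0 for MYC+Ex3 against MYC (0.276%).

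**Figure D2:**
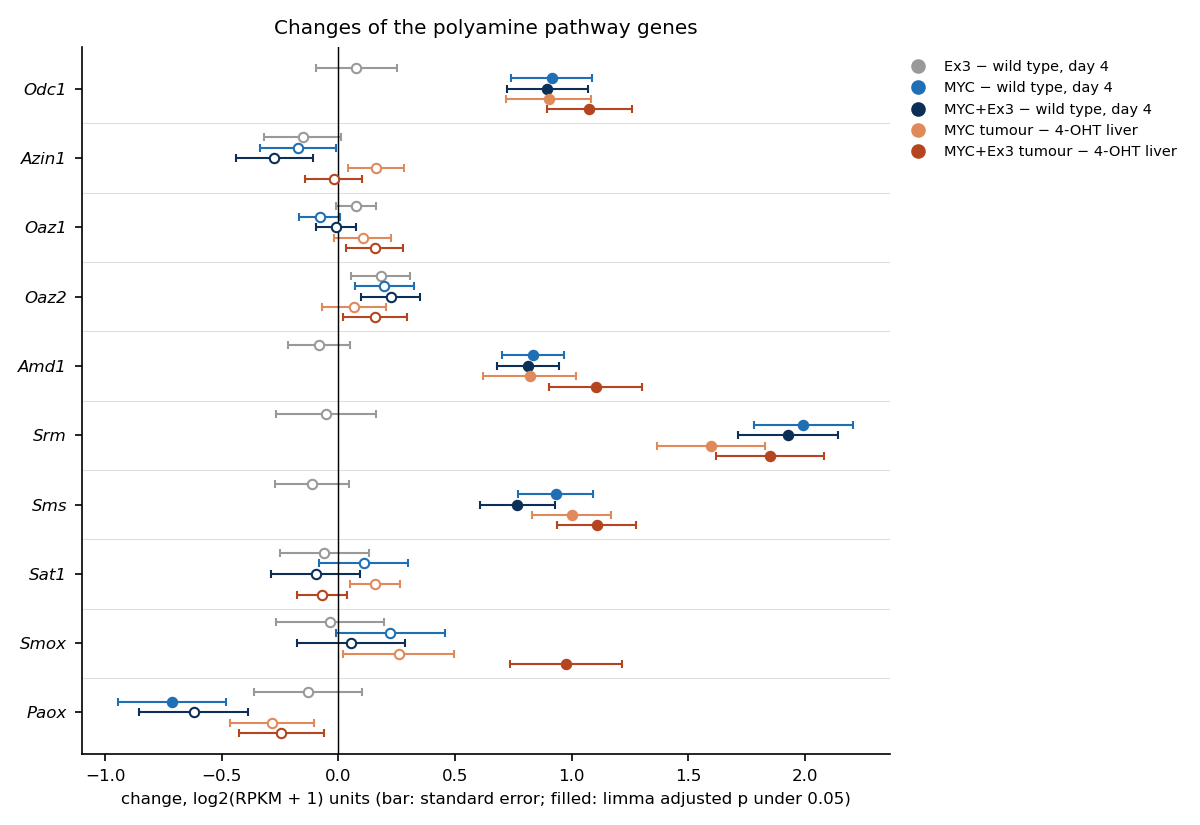
Log2(RPKM + 1) change of each member in 5 comparisons, with standard errors and filled points where the limma adjusted p was under 0.05. Srm, Odc1, Amd1 and Sms lie right of 0 in the 4 comparisons with MYC, Smox does so past the test in MYC+Ex3 tumours, and the antizymes sit near 0 throughout.

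Proliferation markers rose along with the synthesis genes in the groups with MYC. All 6 on the list were called higher with MYC, and their summed RPKM was 4.24 to 15.3 in wild-type, 9.82 to 126 in Ex3, 132 to 376 in MYC and 247.5 to 433 in MYC+Ex3 livers. With Ex3 alone 0 of the 6 were called, yet their median log2 change was 1.34. The changes of Odc1, Amd1, Srm and Sms there were 0.076, -0.085, -0.054 and -0.114. Of the 6 endothelial markers, 2 were called lower with MYC (3 after rescaling) and 1 with both alleles (4 after rescaling), with sums of 96.2 to 168 RPKM in wild-type, 71.8 to 120 in MYC and 66.3 to 126 in MYC+Ex3 livers. Of the 6 stellate cell and fibroblast markers, 1 was called lower and 1 higher with MYC, and 2 lower and 1 higher with both alleles, with sums of 180.5 to 195, 123 to 196 and 94.6 to 192 RPKM in the same order. With MYC, 1 of 8 hepatocyte markers was called lower and 1 of 8 macrophage markers higher. Over all genes, 5.36% were called lower and 16.9% higher with MYC, and 6.18% and 17.9% with both alleles. After rescaling, 9.52% were called lower with both alleles. The part of these cell types and of proliferation in the changes of Odc1, Amd1, Srm, Sms and Paox was not tested.

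In the tumour set Srm had the highest mean level of the members in both kinds of tumour, with ranges that overlapped those of Odc1. It had 21.0, 27.7 and 30.3 RPKM in MYC tumours and 27.4, 30.7 and 36.1 in MYC+Ex3 tumours, against 4.91 to 11.6 (median 8.97) in the 7 control livers. Odc1 had 21.2, 21.8 and 28.3 in MYC tumours and 24.0, 27.3 and 29.1 in MYC+Ex3 tumours, against 7.59 to 15.9 (median 12.5) in controls. For both genes every tumour lay above every control liver.

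Amd1 and Sms showed the same separation. Amd1 had 17.3, 18.7 and 22.4 RPKM in MYC tumours and 22.1, 24.1 and 25.2 in MYC+Ex3 tumours, against 7.23 to 16.3 (median 11.4) in controls. Sms had 2.01, 3.32 and 5.22 in MYC tumours and 3.24, 3.76 and 4.01 in MYC+Ex3 tumours, against 0.881 to 1.39 (median 1.22) in controls. MYC tumour replicate 1 had the lowest Sms and replicate 3 the highest.

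Over all genes the median log2 difference from the control livers was 0.19 in MYC tumours and 0.23 in MYC+Ex3 tumours. In this set, unlike at day 4, RPKM did not keep a fixed ratio to a gene's reads per M reads in genes. Changes and shares as deposited carry that difference in scale, so changes are also given after rescaling each library by its median ratio. In MYC tumours Srm rose by 1.60 ± 0.231 (1.39 after rescaling; limma, adjusted p = 8.92e-05 and 0.00027) and Sms by 1.00 ± 0.169 (0.85 rescaled; 0.000299 and 0.000657). Odc1 rose by 0.90 ± 0.183 (0.69 rescaled; limma, adjusted p = 0.00117 and 0.00231) and Amd1 by 0.82 ± 0.2 (0.61 rescaled; 0.00397 and 0.0141). In MYC+Ex3 tumours the changes were 1.85 for Srm, 1.11 for Sms, 1.10 for Amd1 and 1.08 for Odc1, and 1.64, 0.95, 0.89 and 0.86 after rescaling, with adjusted p of at most 0.000971. The numbers in the control titles start with S14 or S15, and Srm had 4.91 to 9.0 RPKM in S14 livers and 8.97 to 11.6 in S15 livers. Against S14 livers alone Srm changed by 1.88 in MYC and 2.13 in MYC+Ex3 tumours. Against S15 livers alone it changed by 1.23 and 1.48, and Amd1 by 0.58 and 0.86. The 4 genes stayed called against either set. The limma calls were 4 members higher and 0 lower in MYC tumours, against 36.2% and 13.7% of all genes, and 5 higher and 0 lower in MYC+Ex3 tumours, against 42.3% and 18.4%. These counts are close to the shares of all genes. Srm stood at the 98.2nd and 97.4th percentile of the changes of all 11854 genes tested, and the other 3 at the 87.2nd to 91.7th. The log2(RPKM + 1) scale understates the change of Sms, which averaged 1.17 RPKM in controls. In the authors' deposited table the log2 changes in MYC tumours were 1.39 for Srm, 1.33 for Sms, 0.715 for Odc1 and 0.609 for Amd1. In MYC+Ex3 tumours they were 1.66, 1.43, 0.89 and 0.901. Ranges did not overlap for the 4 genes in MYC tumours (26.3% of all genes, higher) and for 5 members in MYC+Ex3 tumours (38.2%).

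**Figure D3:**
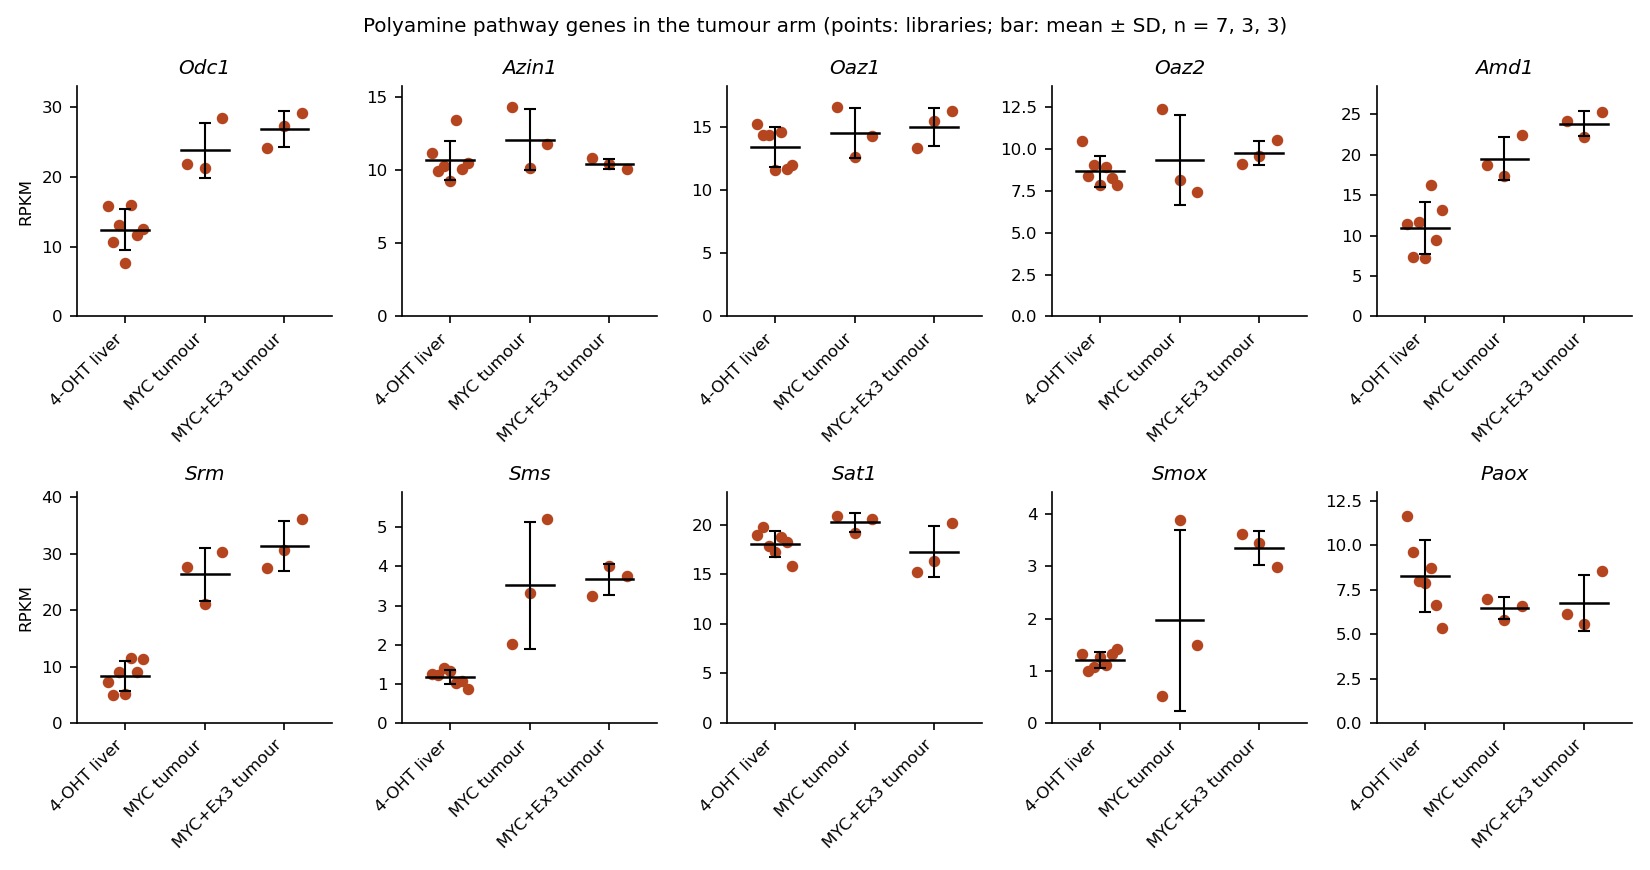
RPKM of each member in 7 control livers taken after 4-OHT, 3 MYC tumours and 3 MYC+Ex3 tumours, with 1 point per library and bars for the mean ± SD. Srm, Odc1, Amd1 and Sms of every tumour lie above all controls, and Smox is spread from 0.518 to 3.89 RPKM among the MYC tumours.

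The fifth member called in MYC+Ex3 tumours was Smox, the spermine oxidase. It had 2.99, 3.45 and 3.61 RPKM there, against 0.991 to 1.42 (median 1.26) in controls, a log2 change of 0.98 ± 0.239 (0.82 rescaled; limma, adjusted p = 0.00285 and 0.0104). The 3 MYC tumours, at 0.518 (replicate 1), 1.49 (replicate 3) and 3.89 (replicate 2), lay below, above and far above the controls, and their difference of 0.26 did not pass the test. Without MYC tumour replicate 1 that Smox difference was 0.66 (limma, adjusted p = 0.00879) and without replicate 2 it was -0.19 (0.346). Between the tumour kinds Smox differed by 0.72 with an interval from 0.11 to 1.32 (limma, adjusted p = 0.195), and by 1.16 without MYC tumour replicate 2 (adjusted p = 0.00115).

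Paox and Sat1 depended on the scaling in tumours, and Paox also on which control livers were used. Paox had 5.79, 6.60 and 7.0 RPKM in MYC tumours and 5.60, 6.12 and 8.57 in MYC+Ex3 tumours, against 5.37 to 11.7 (median 7.99) in controls. All 6 tumours lay within the control range. The Paox differences were -0.29 and -0.25 as deposited (limma, adjusted p = 0.205 and 0.257) and -0.48 and -0.44 after rescaling (0.0149 and 0.0176). Paox had 7.88 to 11.7 RPKM in the S14 control livers and 5.37 to 8.71 in the S15 control livers. Against the S15 livers alone its differences were -0.065 and -0.024 as deposited (limma, adjusted p = 0.814 and 0.926). Sat1 had 19.2, 20.6 and 20.9 in MYC tumours and 15.2, 16.4 and 20.1 in MYC+Ex3 tumours, against 15.8 to 19.8 (median 18.3) in controls. Its difference in MYC+Ex3 tumours was -0.07 (limma, adjusted p = 0.578), and -0.29 after rescaling (0.00866). In MYC tumours it was 0.16, and -0.06 after rescaling, with adjusted p of 0.243 and 0.59.

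No test was passed for Azin1, Oaz1 or Oaz2 in either tumour comparison, and rescaling turned the signs of their positive differences. Azin1 had 10.1 to 14.3 RPKM over the 6 tumours against 9.24 to 13.4 in controls, and Oaz1 had 12.6 to 16.6 against 11.6 to 15.2. Oaz2 had 7.45 to 12.4 against 7.83 to 10.5. The Oaz1 differences were 0.11 and 0.16 in MYC and MYC+Ex3 tumours, and -0.10 and -0.06 after rescaling. After rescaling limma called 4 members higher and 1 lower in MYC tumours (27% and 23.5% of all genes), and 5 higher and 2 lower in MYC+Ex3 tumours (33.7% and 27.3%). The authors' deposited table calls 5 members in MYC tumours, where 44.5% of its genes are called, and 8 in MYC+Ex3 tumours (60.7%). Those 8 are Srm, Sms, Odc1, Amd1 and Smox, higher, and Paox, Sat1 and Azin1, lower.

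MYC+Ex3 tumours did not differ from MYC tumours in any member by limma, where 4.13% of all genes were called; 1 member, Smox, had an unadjusted p under 0.05, and the authors' deposited table calls 0 (4.49% of its genes). The intervals were -0.29 to 0.64 for Odc1, -0.23 to 0.79 for Amd1, -0.33 to 0.84 for Srm and -0.32 to 0.54 for Sms. Markers of other cell types were also called between tumours and controls. Over all genes, 13.7% were called lower and 36.2% higher in MYC tumours, and 18.4% and 42.3% in MYC+Ex3 tumours. After rescaling these shares were 23.5% and 27%, and 27.3% and 33.7%. Of 8 macrophage markers, 7 were called lower in each kind of tumour, with a summed RPKM of 119 to 162.5 in controls, 45.5 to 123 in MYC tumours and 56.8 to 73.6 in MYC+Ex3 tumours. The 2 neutrophil and 4 erythroid markers were called higher in MYC+Ex3 tumours, with erythroid sums of 64.0 to 79.0 against 13.2 to 30.6 in controls. The endothelial list had 4 of 6 markers called lower in each kind of tumour (5 after rescaling), with sums of 31.7 to 49.6 RPKM in controls, 23.5 to 32.0 in MYC and 21.5 to 27.2 in MYC+Ex3 tumours. Of the stellate cell and fibroblast markers, 3 of 6 were called lower and 2 higher in MYC tumours, and 4 lower and 1 higher in MYC+Ex3 tumours. Of 8 hepatocyte markers, 1 was called lower in MYC tumours (4 after rescaling) and 3 in MYC+Ex3 tumours (5 after rescaling). The 1 of 8 as deposited is near the share of all genes. The 2 T and B cell markers tested were called lower in MYC+Ex3 tumours. All 6 proliferation markers were called higher in both kinds, with sums of 13.2 to 37.3 RPKM in controls, 60.8 to 102.5 in MYC and 103 to 124 in MYC+Ex3 tumours. No marker of these lists was at 0 throughout a group, and the part of these cell types and of proliferation in the members' differences was not tested.

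The genes around the pathway were counted in lists. S-adenosylmethionine supply and methionine salvage provide the donor that Amd1 decarboxylates and reclaim what Srm and Sms leave over. Of its 9 genes, 4 were called higher and 0 lower with MYC, with both alleles, and with MYC added to Ex3: Mat2a, which makes S-adenosylmethionine outside the adult hepatocyte program, and the salvage genes Mtap, Mri1 and Enoph1. Over all genes tested 16.9%, 17.9% and 16.4% were called higher in these comparisons. Mtap, which cleaves the methylthioadenosine released by spermidine and spermine synthesis, had 13.5 to 18.9 RPKM in wild-type livers and 26.1 to 67.3 in MYC livers, with no overlap. Its log2 change was 1.41 ± 0.197 with MYC (limma, adjusted p = 3.35e-05) and 1.33 with both alleles (adjusted p = 4.62e-05). Enoph1 had the largest rise on the list with both alleles, 1.35 ± 0.17 (adjusted p = 7.9e-06). In tumours 5 were called higher in each comparison (36.2% and 42.3% of all genes), and 4 and 5 after rescaling (27% and 33.7%). Mtap was at 1.16 in MYC tumours and Enoph1 at 1.55 in MYC+Ex3 tumours. As deposited, Apip was the 1 gene lower, by 0.36 in MYC+Ex3 tumours (limma, adjusted p = 0.0382), where 18.4% of all genes were called lower. Mat1a, the adult liver form, was not called in any comparison.

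**Figure D4:**
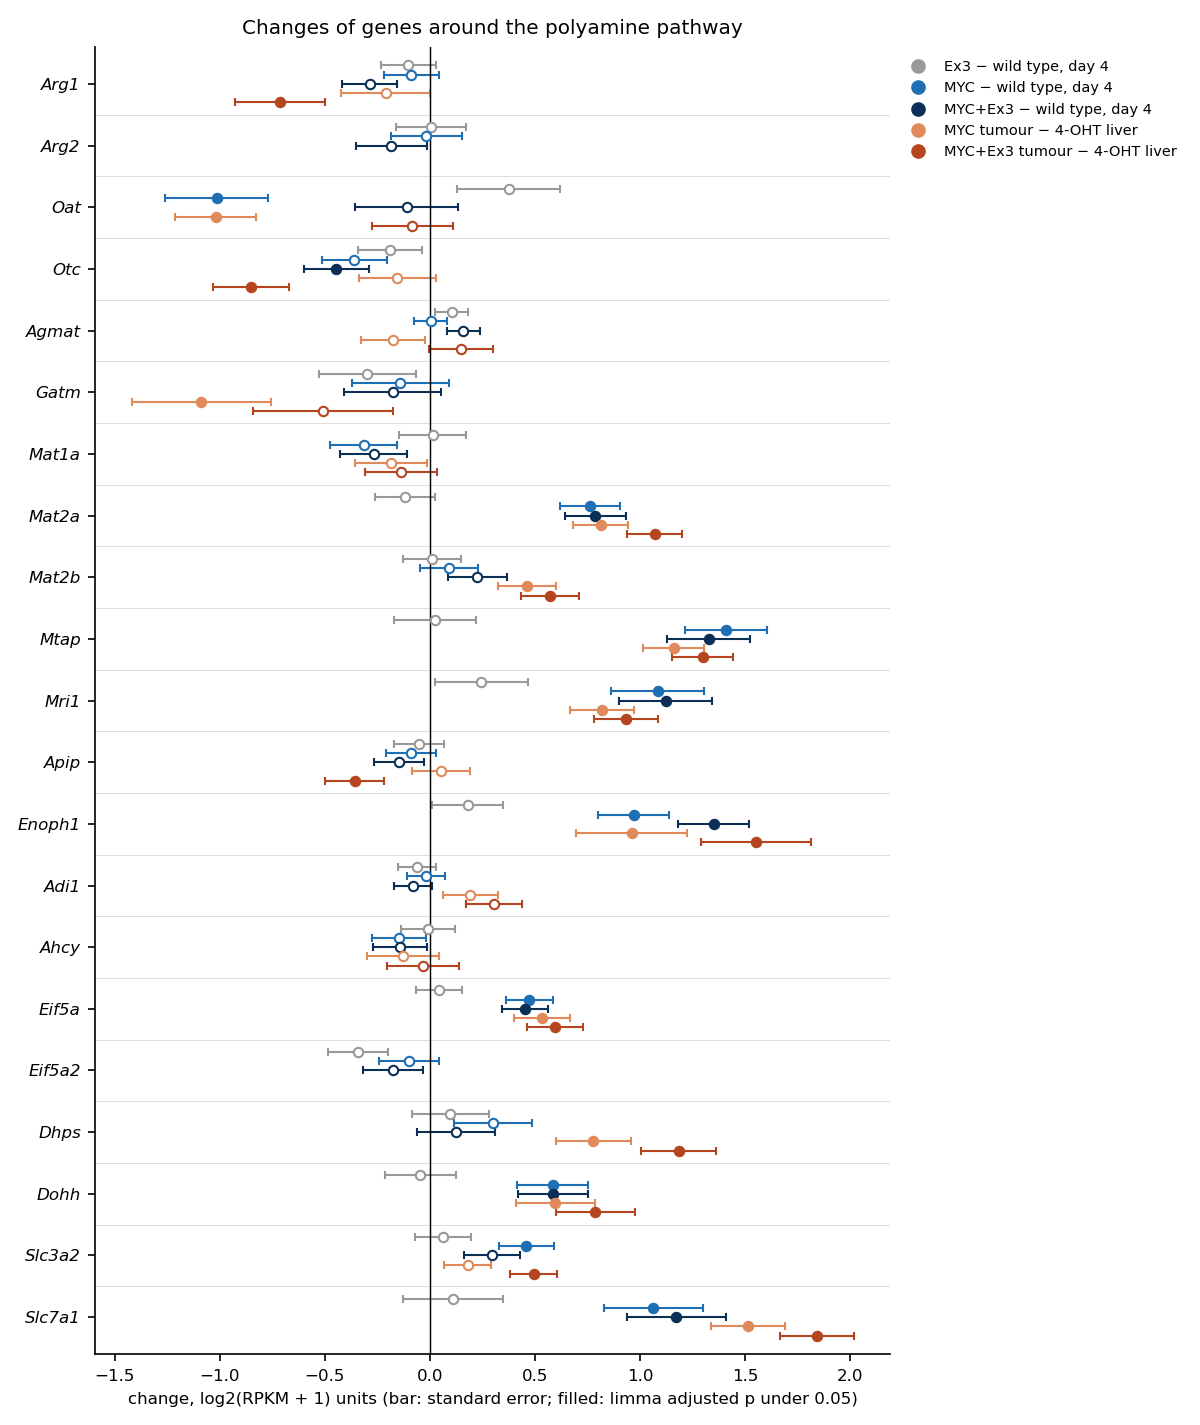
Log2(RPKM + 1) change of genes around the polyamine pathway in 5 comparisons, with standard errors and filled points where the limma adjusted p was under 0.05. Mtap, Mri1, Enoph1, Mat2a, Eif5a, Dohh and Slc7a1 lie right of 0 in the 4 comparisons with MYC, while Oat is lower with MYC alone in livers and tumours.

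Spermidine also donates part of itself to the translation factor eIF5A, a modification called hypusination. Of the 4 genes of this step, Eif5a and Dohh were called higher and 0 lower in each of the 3 day 4 comparisons that add MYC, against the same 16.9%, 17.9% and 16.4% of all genes called higher. Eif5a had 89.7 to 102 RPKM in wild-type and 108 to 177 in MYC livers, with a change of 0.47 ± 0.111 (limma, adjusted p = 0.0041). Dohh, the hydroxylase, had the larger change, 0.58 ± 0.168 (adjusted p = 0.0166), and its ranges overlapped. After rescaling Dohh was called in each of these comparisons and Eif5a in 0 of them (limma, adjusted p = 0.0619 with MYC, 0.0589 with both alleles and 0.0833 for MYC added to Ex3). In tumours all 3 that were tested were called higher in each kind, as deposited (36.2% and 42.3% of all genes) and after rescaling (27% and 33.7%), and Dhps, the synthase that uses spermidine, rose by 0.78 in MYC tumours (adjusted p = 0.00263) and by 1.18 in MYC+Ex3 tumours (adjusted p = 6.32e-05).

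Genes that supply or divert ornithine went down where they moved against the controls. Of 6, 1 was called lower with MYC at day 4 (5.36% of all genes), namely Oat, which takes ornithine toward glutamate. Oat had 147 to 204 RPKM in wild-type, 48.3 to 122 in MYC and 111 to 251 in MYC+Ex3 livers. The MYC livers lay wholly below the wild-type livers, with a change of -1.02 ± 0.245 (limma, adjusted p = 0.00507), and the difference with both alleles was -0.11 (adjusted p = 0.792). Of the 5 genes tested in the tumour set, 2 were called lower and 0 higher in each kind of tumour, against 13.7% and 18.4% of all genes called lower. After rescaling 3 were lower in MYC tumours (23.5%), Agmat being the one added (-0.39; limma, adjusted p = 0.0246), and 2 in MYC+Ex3 tumours (27.3%). As deposited, Gatm, which moves an amidino group from arginine to glycine, fell furthest in MYC tumours, by 1.09 (adjusted p = 0.0143, ranges overlapping). Oat was lower in MYC tumours by 1.02 (adjusted p = 0.000721) and was 0.94 higher in MYC+Ex3 than in MYC tumours (adjusted p = 0.0344), with no overlap. At day 4 the difference between MYC+Ex3 and MYC livers was 0.91 and did not pass the test (adjusted p = 0.327). Otc, the urea cycle enzyme that uses ornithine, was lower with both alleles by 0.45 at day 4 (adjusted p = 0.0412) and by 0.85 in tumours (adjusted p = 0.00102).

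Among 7 genes of polyamine and amino acid transport and extracellular oxidation, 6 were tested at day 4 and 5 in the tumour set. With MYC at day 4, 2 were called higher and 0 lower (16.9% and 5.36% of all genes). With both alleles the counts were 1 and 0 (17.9% and 6.18%), and with MYC added to Ex3 1 and 1 (16.4% and 4.7%). They were 1 and 0 in MYC tumours (36.2% and 13.7%), and 3 and 0 in MYC+Ex3 tumours (42.3% and 18.4%). After rescaling, the day 4 counts were 2 and 1, 1 and 0 (15% and 9.52%), and 1 and 1 in the same order. The rescaled tumour counts were 1 and 1 (27% and 23.5%), and 2 and 2 (33.7% and 27.3%). Rescaled shares for MYC and for MYC added to Ex3 at day 4 are not reported here. The gene lower for MYC added to Ex3 was Slc22a3, an organic cation transporter (-0.69; limma, adjusted p = 0.00888, ranges not overlapping). Slc7a1, a transporter of arginine, lysine and ornithine, rose in each comparison that adds MYC. It had 0.372 to 0.824 RPKM in wild-type and 1.23 to 3.71 in MYC livers, and 0.17 to 0.485 in control livers against 1.86 to 4.77 in MYC tumours. Its mean was 0.565 RPKM in wild-type and 2.40 in MYC livers, and 0.314 in control livers and 2.93 in MYC tumours. On the log2(RPKM + 1) scale, which understates changes of low genes such as this, Slc7a1 was 1.06 ± 0.236 higher at day 4 (limma, adjusted p = 0.00267). In MYC tumours it was 1.51 ± 0.176 higher on that scale (limma, adjusted p = 1.83e-05). Of the homologs Azin2, Oaz3 and Sat2, Oaz3 was lower with both alleles at day 4, by 0.67 (limma, adjusted p = 0.038; 6.18% of all genes lower), and 0 others were called. After rescaling Sat2 was also called lower there (-0.408; limma, adjusted p = 0.0492; 9.52% of all genes lower).

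The genes most like Odc1 across the 20 day 4 livers, by Pearson r on log2(RPKM + 1) over the 9651 genes that averaged 5 RPKM or more, were Pycrl (0.976), Rbck1 (0.964) and Nme4 (0.963). Those most like Srm were Pus7 (0.979), Ipo5 (0.977) and Uck2 (0.976). Across the 13 tumours and control livers, over 5472 genes, they were Rwdd4a (0.986), Pole3 (0.985) and Cacybp (0.982) for Odc1, and Tfrc (0.988), Nop2 (0.987) and Nolc1 (0.986) for Srm. These libraries share the group differences, so the values describe the pattern and carry no test. Among the members themselves, Srm followed Amd1 with r = 0.956 and Odc1 with 0.884 at day 4, and Paox ran the other way, at -0.692.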

How the data were processed

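Total RNA libraries were strand-specific, per the labels' protocols. The authors deposited RPKM values for 33 libraries together with log2 fold changes and adjusted p-values of their own comparisons, per the file headers. TopHat2 2.0.8, featureCounts 1.4.5-p1, SAMtools, DESeq2 and the build mm9 are named in the submitters' processing notes; the annotation and the treatment of duplicate reads are not given in the sources used here. Reads per gene were recovered from the RPKM steps (100.0% of genes whole within 0.02) and used only to state depth. In all, 0 columns belonged to other series, and 0 pairs of libraries had identical values.

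Changes were tested with limma 3.58.1 (R 4.3.3) (two-sided, eBayes with a mean-variance trend) on log2(RPKM + 1), over genes with an RPKM of at least 1 in at least 3 libraries of a set, fitting the 20 day 4 livers together and the 13 tumours and controls together. Benjamini-Hochberg adjustment ran over all genes tested within each of 9 comparisons, and genes were called at 0.05. Labels do not say that libraries come from separate animals, so p-values measure the spread between libraries. The members, the lists and the tests were chosen with earlier results of these data known. All members are named, and of each list a called gene with the largest rise and fall may be, with others where a count of 5 or fewer was named after its values were seen. In the transport list, 1 gene is not reported here.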

Additional observations from a re-analysis of the deposited data

How the results depend on the processing

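Of the 90 member changes, 22 were called; 0 of these changed sign and 20 stayed called wherever they were tested, under every alternative and with any 1 library left out. The alternatives were a pseudocount of 0.1, no filter or an RPKM filter of 5, median-ratio rescaling, sex or keratin terms, keratin-free or keratin-bearing libraries alone, sample quality weights, a fit of only the groups compared, subsets of the control livers by title, and, chosen after seeing the data, a term for the number series in the titles. With that term the same 5 members were called with MYC, and with both alleles Paox was added (-0.66, limma adjusted p = 0.0469). The calls not kept were Odc1 with MYC at day 4, lost among keratin-free libraries, and Paox with MYC at day 4, lost with no filter (limma adjusted p = 0.0506), with quality weights (0.0982) and with only the groups compared (0.0927). Of the 68 uncalled changes, 46 changed sign somewhere. Quality weights raised the members called to 7 with both alleles against wild type (5 higher, 2 lower) and to 7 for MYC added to Ex3 (4 higher, 3 lower); the cause was not tested. With the RPKM filter of 5, 3 members were called in MYC+Ex3 tumours and 3 in MYC tumours, because Sms and Smox were then not tested. The difference in Paox with both alleles passed the test under 6 of 11 alternatives and without any 1 of 4 libraries. Leaving out 1 library gave 0 to 1 members called between the tumour kinds. Keratin-bearing libraries alone could not be fitted for MYC livers (1 library), and the fit of only the groups compared was not run for the interaction. No paired analysis was possible because the numbers in the titles differ for every library, so none pairs libraries across groups. Depth limits Smox most, with 20 reads in its lowest library.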

Other observations

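Keratin-bearing and keratin-free day 4 livers differed in 3546 of 13688 genes by limma (25.9%), and among the members in Azin1 and Paox. Azin1, which shields ornithine decarboxylase from the antizymes, had 53.0 to 81.4 RPKM in the 10 keratin-bearing and 39.8 to 60.5 in the 10 keratin-free libraries. Within groups the ranges did not meet: 62.6 to 81.4 against 48.8 to 51.6 in wild-type, 64.3 to 66.6 against 41.2 to 43.7 in Ex3, and 53.0 to 61.7 against 39.8 to 43.9 in MYC+Ex3 livers, while the 1 keratin-bearing MYC liver, at 61.2, lay just above the 4 others. Paox had 27.2 to 30.1 RPKM in keratin-bearing and 39.0 to 44.4 in keratin-free Ex3 livers, and 23.0 to 43.6 against 44.9 to 47.2 in wild-type livers. In MYC livers it had 12.2 in the 1 keratin-bearing and 20.6 to 36.2 in the keratin-free libraries, while in MYC+Ex3 livers it had 19.3 to 29.7 against 20.7 to 23.4, with the keratin-free libraries inside the keratin-bearing range. Between males and females 423 genes (3.09%) were called, Odc1 among them, and Amd1 differed by 0.27 without passing the test (adjusted p = 0.0841).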
